A study of Homo sapiens with 3 samples.

Results

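The 10 genes described here are known targets of NRF2 (encoded by NFE2L2), the transcription factor that switches on cellular defence against oxidants and reactive chemicals. They were taken by symbol from a list of NRF2 target genes for redox defence and of aldo-keto reductases, and all 10 were among the 29960 genes of the deposited table. They are NQO1 and HMOX1, which act on quinones and heme, GCLC and GCLM, which make glutathione, TXNRD1 and SRXN1, which renew thioredoxin and peroxiredoxins, and the aldo-keto reductases AKR1C1, AKR1C2, AKR1C3 and AKR1B10. None of them passed the test between gemcitabine-resistant and parental bladder cancer cells. The 3 AKR1C genes had the highest log2 fold changes of the set between the single libraries (1.46 to 1.76), whereas in the group means that the authors deposited AKR1C2 and AKR1C3 were lower in the resistant line.

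Poly-A RNA was sequenced from the established human bladder cancer cell line 5637, in its parental form (5637P, genotype given as WT) and as a gemcitabine-resistant derivative (5637GR). Gemcitabine is a deoxycytidine analogue that blocks DNA synthesis. The derivative had been selected by repeated exposure to rising gemcitabine and was then grown without the drug, and the cells of both groups were untreated, were grown in RPMI medium with fetal bovine serum, and were single-cell clones. Counts per library were used for 1 parental library and 2 resistant libraries, called Parental 1, Resistant 1 and Resistant 2, while the group means that the authors deposited come from 3 clones per group by the design. Each library is 1 clone, so a p-value over these libraries is set against an estimated spread between clones or cultures of 1 cell line. For each gene, edgeR took that spread from the 2 resistant libraries (1 residual degree of freedom) and, with more weight, from all genes tested (9.04 prior degrees of freedom). The parental group, with 1 library, was assumed to vary like the resistant group. In bulk RNA, a smaller share of cells that express a gene and less RNA of that gene per cell cannot be told apart.

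In unstressed cells the adaptor KEAP1 holds NRF2 and hands it to the ubiquitin ligase built on CUL3 and RBX1, so that the protein is degraded. Oxidants and electrophiles modify cysteines of KEAP1, NRF2 then accumulates, pairs with a small MAF protein and binds antioxidant response elements near its target genes, where BACH1 competes with it. The targets make glutathione, reduce thioredoxin, peroxiredoxins, quinones and carbonyl compounds, and supply the NADPH that these reactions use. Bladder cancers and other carcinomas can carry high NRF2 activity, and AKR1C and AKR1B10 mRNAs are commonly read as markers of it.

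Between 14475531 and 17461941 reads were counted on genes per library, and 3 reads, taken as the floor, correspond to 0.173 to 0.213 CPM (counts scaled to library size with edgeR's TMM factors). Of 17 urothelial and epithelial markers, 14 had more than 3 reads in a library, and their summed level was 10400 CPM in Parental 1 against 7620 and 7820 CPM in Resistant 1 and 2. KRT5, the basal keratin, fell from 3829 reads to 160 and 240 (edgeR's quasi-likelihood test, adjusted p = 0.000551), UPK1B, a uroplakin, from 74 reads to 0 and 0 (adjusted p = 0.00837). In the group means the falls were smaller. KRT5 had 11544 parental and 2047 resistant normalized reads (log2 ratio -2.49, against -4.52 by edgeR in the libraries). UPK1B had 70.1 and 20.4 (-1.73, against -9.39). For both genes the resistant mean lay above the reads of either resistant library, and the further resistant clone in that mean was not analysed here. KRT13 and KRT17 also had group means at least 2-fold lower in the resistant line. Leukocyte markers summed to 0.781 to 1.53 CPM and endothelial markers to 0.426 to 2.02 CPM, and fibroblast markers to 145 to 172 CPM. Nearly all of the last sum came from COL1A1 (1591, 1584 and 1063 reads in Parental 1, Resistant 1 and 2) and COL1A2 (835, 946 and 1458 reads), while LUM was at 0 and COL3A1 and PDGFRB had at most 4 reads in each library; these genes were chosen after their values were seen. The part of the keratin difference in the values below was not tested.

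Of the 10 genes, 9 had enough reads for the test, and 0 of 9 passed an adjusted p of 0.05 (edgeR), against 0.882% of 15643 genes tested. Before adjustment, 2 of 9 had a p under 0.05, AKR1C1 and AKR1C3, both higher in the resistant libraries, against 9.73% of all genes in either direction. DESeq2 called 0 of 9 after adjustment, against 1.68% of 14729 genes, and 1 of 10, AKR1C3, before it, against 4.21% of 26434 genes. Both resistant libraries lay above the parental one for 5 of 9 genes (GCLC, SRXN1, AKR1C1, AKR1C2 and AKR1C3), a placement that 35.2% of all tested genes had. For 0 of 9 did both lie below, against 34.5%, and for 4 (NQO1, HMOX1, GCLM and TXNRD1) the parental library lay between the resistant ones. The median log2 fold change of the 9 genes was 0.33, against 0.03 over all genes tested.

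In the deposited group means, taken as resistant over parental with a pseudocount of 1, 1 of 9 genes was at least 1.5-fold higher (AKR1C1), against 9.04% of the 14630 genes whose mean reached 10. Another 1 of 9 was at least 1.5-fold lower (AKR1C2), against 9.51%. The median log2 ratio of the 9 genes was 0.13, and that of all genes 0.01. These means carry no SD, so their ratios are descriptions without a test, and a mean holds the library of its group that is also given singly.

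Levels of different genes were compared in FPKM, which divides by gene length. In all 3 libraries TXNRD1 was the most abundant of the 10 genes, with 79.2 FPKM in Parental 1, 103 in Resistant 1 and 67.8 in Resistant 2. NQO1 came next with 46.3, 57.5 and 27.1 FPKM, and then GCLC with 7.63, 11.03 and 9.01 FPKM. The lowest TXNRD1 value lay above the highest NQO1 value, and the lowest NQO1 value above the highest GCLC value. TXNRD1 stood above 94.2% to 96.7% of the tested genes and NQO1 above 83.3% to 93.0%. GCLM (3.30 to 5.42 FPKM), HMOX1 (3.02 to 3.57 FPKM) and AKR1C3 (2.64 to 8.53 FPKM) formed a middle group whose ranges overlapped. AKR1C3 was 6th of 10 in Parental 1 and 4th in both resistant libraries, where it passed GCLM and HMOX1. SRXN1, AKR1C2 and AKR1C1 stayed under 1 FPKM everywhere, and AKR1B10 was last in all 3 libraries. The order of the AKR1C genes depends on the gene lengths used: 6705 bases for AKR1C1, 3381 for AKR1C2 and 1807 for AKR1C3. In Resistant 1, AKR1C1 had more reads than AKR1C2 (51 against 45) but a lower FPKM (0.480 against 0.840).

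**Figure D1:**
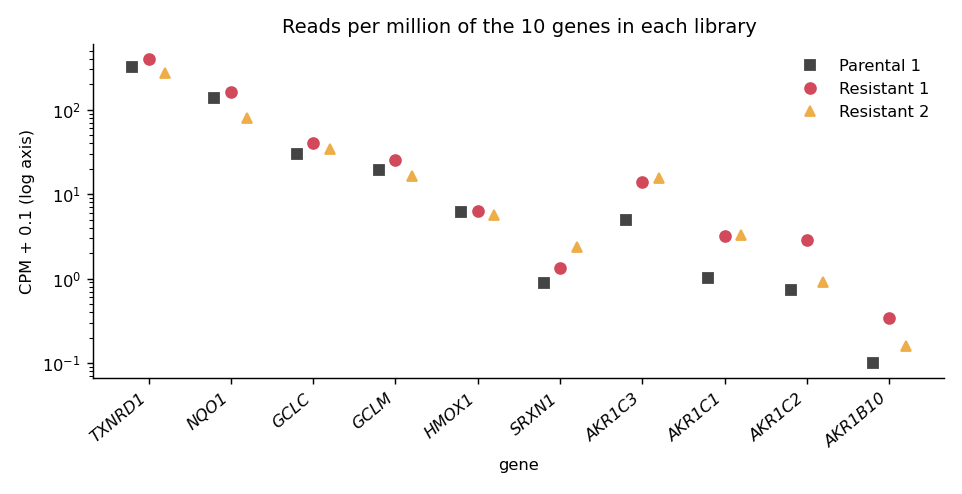
Level of each gene on a log axis, as TMM-scaled CPM plus 0.1, with 1 point per library (square, Parental 1; circle, Resistant 1; triangle, Resistant 2). TXNRD1 lies between 271 and 396 CPM, and the 3 AKR1C genes show the parental square under both resistant points, with the Resistant 2 triangle of AKR1C2 (0.806 CPM) close to the parental 0.639 CPM.

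NQO1 (ENSG00000181019, chromosome 16, 69740899 to 69760854, minus strand, protein-coding; hg19 by the submitters' notes, as for all gene positions here) encodes the enzyme that reduces quinones without forming a semiquinone radical and is a widely used readout of NRF2 activity. It had 1952 reads in Parental 1 (139 CPM), 2654 in Resistant 1 (162 CPM) and 1379 in Resistant 2 (79.4 CPM). Resistant 1 was the highest and Resistant 2 the lowest, with the parental library between them. The resistant clones differed 2.04-fold from each other (95% exact interval of the counting error 1.91 to 2.18), whereas Resistant 1 was 1.17-fold the parental library (1.1 to 1.24) and Resistant 2 was 0.573 of it (0.535 to 0.614). The edgeR log2 fold change was -0.20 (SE 0.45, adjusted p = 0.963), and the group means, 2108 parental and 1676 resistant normalized reads, gave -0.33.

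HMOX1 (ENSG00000100292, chromosome 22, 35776354 to 35790207, plus strand) encodes heme oxygenase 1, which opens the heme ring and is repressed by BACH1. It had 85, 103 and 96 reads (6.03, 6.30 and 5.53 CPM) in Parental 1, Resistant 1 and Resistant 2. These levels were the closest to each other of the 9 tested genes, and each of the 3 library ratios had a counting interval that spanned 1. By edgeR the log2 fold change was -0.03 (SE 0.48, adjusted p = 0.996), and the group means of 69.6 and 76.1 gave 0.13. Its neighbours within 5 Mb had a median log2 fold change of -0.35 in the libraries (105 genes) against 0.01 over all genes whose mean reached 10.

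GCLC and GCLM encode the catalytic and the modifier subunit of glutamate-cysteine ligase, which makes the first and rate-limiting bond of glutathione. GCLC (ENSG00000001084, chromosome 6, 53362139 to 53481768, minus strand) had 421 reads in Parental 1, 666 in Resistant 1 and 600 in Resistant 2 (29.9, 40.7 and 34.5 CPM). Both resistant libraries were above the parental one, by 1.36-fold (1.2 to 1.54) and 1.16-fold (1.02 to 1.31). The edgeR log2 fold change of 0.33 (SE 0.36, adjusted p = 0.891) was smaller than its SE, and the group means of 412.9 and 491.9 gave 0.25. An antisense gene inside GCLC, RP1-27K12.4, had at most 2 reads in a library. Among the 9 tested genes, GCLC, SRXN1 and AKR1C1 were those for which both resistant libraries and the resistant group mean were above their parental counterparts.

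GCLM (ENSG00000023909, chromosome 1, 94350761 to 94374966, minus strand) was split between the resistant clones. Parental 1 had 269 reads, Resistant 1 417 and Resistant 2 280 (19.1, 25.5 and 16.1 CPM), so the resistant clones lay on either side of the parental one and differed 1.58-fold from each other (1.36 to 1.85). Resistant 1 was 1.34-fold the parental library (1.14 to 1.56), near the 1.36 of GCLC, and Resistant 2 was 0.845 of it (0.712 to 1.0), against 1.16 for GCLC, and the difference between the subunits was not tested. The edgeR log2 fold change was 0.12 (SE 0.42, adjusted p = 0.978), and the group means of 307.8 and 288.5 gave -0.09. A core of the antioxidant response element, TGACNNNGC on either strand, was looked for in the RefSeq promoter windows of GRCh38.p14, from 250 bases before to 50 bases after each start. It occurred in 4687 of 35116 windows (13.3%), and in 3 of the 10 windows of the 8 genes described here that have one, those of GCLM and TXNRD1. The matches are printed because the counts of both genes split the resistant clones the same way, with 25 bases on each side, the match in capitals, on the strand of the gene.
GCLM, chr1:93909431-93909489, minus strand: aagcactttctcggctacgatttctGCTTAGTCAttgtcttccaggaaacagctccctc
TXNRD1, first start, chr12:104215655-104215713, plus strand: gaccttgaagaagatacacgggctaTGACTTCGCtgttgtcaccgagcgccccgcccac
TXNRD1, second start, chr12:104286905-104286963, plus strand: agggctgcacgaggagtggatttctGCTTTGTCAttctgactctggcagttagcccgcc

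The GCLM match lies 34 to 26 bases before the start, on the opposite strand (TGACTAAGC). The TXNRD1 matches lie 99 to 91 bases before one annotated start, on the strand of the gene (TGACTTCGC), and 102 to 94 bases before another, on the opposite strand (TGACAAAGC); a further match in the first of these windows overlaps the start itself and is not shown. A match of letters is no evidence of binding, and the counts of the table do not separate the starts of TXNRD1. NQO1, whose counts split the clones likewise, had no match, which says only that these letters are not in its window. HMOX1 and AKR1B10 were not matched in the promoter table.

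TXNRD1 (ENSG00000198431, chromosome 12, 104609557 to 104744061, plus strand) encodes cytosolic thioredoxin reductase, the selenoprotein that returns electrons from NADPH to thioredoxin. It had 4554 reads in Parental 1, 6473 in Resistant 1 and 4704 in Resistant 2 (323, 396 and 271 CPM). As for NQO1 and GCLM, Resistant 1 was the highest and Resistant 2 the lowest, at 1.22-fold (1.18 to 1.27) and 0.838 (0.805 to 0.873) of the parental library. Over both resistant libraries the edgeR log2 fold change was 0.04 (SE 0.39, adjusted p = 0.993), and the group means of 4096 and 4524 gave 0.14. The gene holds the pseudogene RPL18AP3, counted separately with 280, 253 and 439 reads, and 51 neighbours within 5 Mb had a median log2 fold change of -0.22.

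SRXN1 (ENSG00000271303, chromosome 20, 627259 to 634014, minus strand) encodes sulfiredoxin, which repairs over-oxidized peroxiredoxins. Only 11, 20 and 39 reads were counted in Parental 1, Resistant 1 and Resistant 2 (0.781, 1.22 and 2.25 CPM), all above the floor of 3 reads. Both resistant libraries were above the parental one, but the ratio of Resistant 1 (1.57) had a counting interval of 0.716 to 3.62, and that of Resistant 2 (2.88) one of 1.45 to 6.23. The edgeR log2 fold change of 1.15 (SE 0.81) had an adjusted p of 0.749, and the group means of 14.8 and 20.7 gave 0.46. The surrounding genes were lower: 52 neighbours within 5 Mb had a median log2 fold change of -0.25, and only 5 of them (9.62%) had both resistant libraries above the parental one.

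AKR1C1 (ENSG00000187134, 4934796 to 5025475, plus strand), AKR1C2 (ENSG00000151632, 5029967 to 5060223, minus strand) and AKR1C3 (ENSG00000196139, 5077546 to 5149878, plus strand) lie side by side on chromosome 10. Their enzymes reduce ketosteroids, prostaglandins and reactive aldehydes with NADPH, AKR1C3 being the one that makes testosterone from androstenedione. The split of reads among these genes is uncertain where a read fits more than 1 of them: their coding sequences, 972 bases each in GENCODE 29, differ between AKR1C1 and AKR1C2 at 19 bases (98.0% identity), with an identical run of 189 bases. AKR1C3 differs from AKR1C1 at 83 bases (91.5% identity) and from AKR1C2 at 87 (91.0%). Its longest identical runs were 112 bases with AKR1C1 and 171 bases with AKR1C2. Coding exon 2 of 9 (coding bases 85 to 252) holds 10 of the 19 differences between AKR1C1 and AKR1C2 and is printed to show how much a read can tell. Capitals mark the 17 positions at which any of the 3 genes differs, and the last 90 of the 168 bases are the same in all 3 (GRCh38, each on the strand of its gene).
AKR1C1, chr10:4965914-4966081, plus strand: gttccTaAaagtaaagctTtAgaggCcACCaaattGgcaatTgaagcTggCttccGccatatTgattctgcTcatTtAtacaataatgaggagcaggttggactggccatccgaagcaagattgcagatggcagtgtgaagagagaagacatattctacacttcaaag
AKR1C2, chr10:5001514-5001681, minus strand: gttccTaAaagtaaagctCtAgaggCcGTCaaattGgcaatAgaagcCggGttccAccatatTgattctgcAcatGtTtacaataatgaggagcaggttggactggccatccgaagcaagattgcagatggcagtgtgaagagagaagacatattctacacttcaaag
AKR1C3, chr10:5096410-5096577, plus strand: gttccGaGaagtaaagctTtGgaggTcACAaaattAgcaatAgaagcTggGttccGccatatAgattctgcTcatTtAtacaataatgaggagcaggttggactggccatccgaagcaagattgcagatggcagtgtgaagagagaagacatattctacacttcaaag

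**Figure D2:**
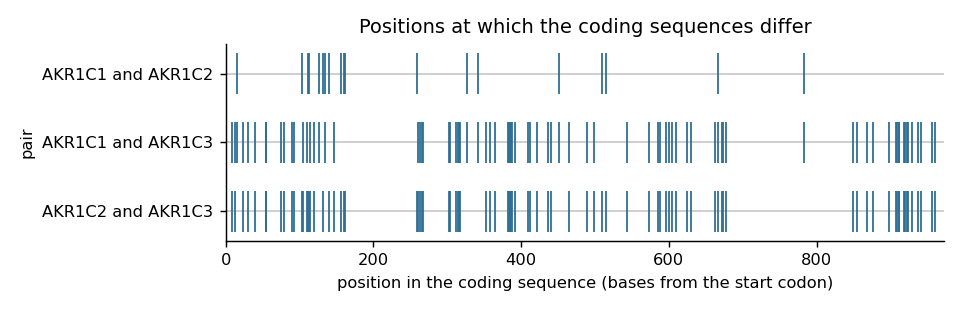
Positions, in bases from the start codon, at which the 972-base coding sequences of each pair of AKR1C genes differ, 1 tick per position. AKR1C1 and AKR1C2 share long stretches without a tick, the longest of 189 bases. AKR1C3 differs from AKR1C1 at 83 positions along the whole sequence. It still shares runs of 112 bases with AKR1C1 and 171 bases with AKR1C2.

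AKR1C3 carried most of the reads of the cluster. It had 69 in Parental 1, 224 in Resistant 1 and 269 in Resistant 2 (4.90, 13.7 and 15.5 CPM). The resistant libraries were close to each other and both above the parental one, by 2.8-fold (2.13 to 3.72) and 3.16-fold (2.42 to 4.18). For AKR1C3 the edgeR log2 fold change of 1.57 (SE 0.46) had an adjusted p of 0.220 (unadjusted p = 0.00638).

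AKR1C1 had 13, 51 and 55 reads in the same order (0.922, 3.12 and 3.17 CPM). Again the resistant libraries were alike, 3.38-fold (1.81 to 6.77) and 3.43-fold (1.85 to 6.85) the parental one, with a log2 fold change of 1.76 (SE 0.69, adjusted p = 0.425). AKR1C2 separated the resistant clones, with 9 reads in Parental 1, 45 in Resistant 1 and 14 in Resistant 2 (0.639, 2.75 and 0.806 CPM). Resistant 1 was 4.31-fold the parental library (2.08 to 10.0), and Resistant 2 was 1.26-fold with an interval that spanned 1 (0.509 to 3.31). The log2 fold change of AKR1C2 was 1.46 (SE 0.95, adjusted p = 0.714).

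Since a read can fit more than 1 of these genes, their sum was also taken, a choice made after the values were seen. It was 91 reads in Parental 1, 320 in Resistant 1 and 338 in Resistant 2 (6.46, 19.6 and 19.5 CPM). The resistant libraries differed by 1.01-fold in the sum (0.86 to 1.17), which was 3.03-fold (2.39 to 3.87) and 3.01-fold (2.38 to 3.84) that of the parental library, although AKR1C2 differed 3.41-fold between them (1.84 to 6.73). AKR1C3 made up 75.8%, 70.0% and 79.6% of the sum, and AKR1C2 9.89%, 14.1% and 4.14%.

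The deposited group means did not show this difference. For AKR1C2 the parental mean was 74.5 normalized reads and the resistant mean 17.6, 4.05-fold lower (log2 ratio -2.02), the opposite direction to the single libraries. For AKR1C3 the means were 211.8 and 173.5 (log2 ratio -0.29), also opposite. For AKR1C1, with 20.9 and 37.1, the direction was the same and the ratio smaller (0.80). Summed over the 3 genes, the parental mean was 307.2 and the resistant mean 228.2 (log2 ratio -0.43).

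Parental 1 differed from the mean of its own group here. On the scale of the group means Parental 1 had 9.32 normalized reads of AKR1C2 and 71.5 of AKR1C3, so the parental mean was 7.99-fold and 2.96-fold that library, and 3.26-fold for the sum. The other parental clones that enter this mean were not analysed here. Parental 1 lay at least 2-fold below the parental mean for 2 of 9 genes, AKR1C2 and AKR1C3, against 1.36% of all genes whose mean reached 10. AKR1C2 took 24.2% of the AKR1C reads in the parental mean and 9.89% in Parental 1. Of the other tested genes, the parental mean was between 0.791 (HMOX1) and 1.55 (AKR1C1) of the value in Parental 1. The resistant libraries stood nearer to their mean: the resistant mean was 0.86 and 0.753 of Resistant 1 and 2 for AKR1C3, and 0.435 and 1.47 for AKR1C2. For AKR1C1, AKR1C3 and the sum, however, the resistant mean lay below both resistant libraries. For the sum it was 228.2, against 288.2 in Resistant 1 and 289.5 in Resistant 2. The further resistant clone in this mean was not analysed here. The direction of the AKR1C2 and AKR1C3 differences thus depended on whether the single libraries or the group means were used.

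**Figure D3:**
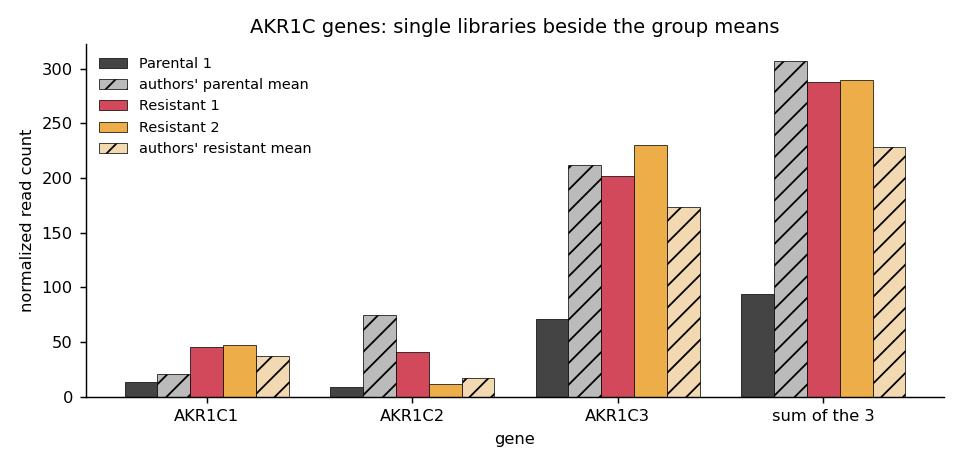
Normalized reads of AKR1C1, AKR1C2, AKR1C3 and their sum, on the scale of the deposited group means. Plain bars are the 3 single libraries and hatched bars the authors' means, which carry no error. For the sum, Parental 1 stands at 94.3 and the parental mean at 307.2, above both resistant libraries (288.2 and 289.5).

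The neighbours of the cluster did not share the ratio of its genes. Within 5 Mb, 35 other genes whose mean reached 10 had a median log2 fold change of 0.07 in the libraries and 0.11 in the group means, and 42.9% of them had both resistant libraries above the parental one. AKR1B10 (ENSG00000198074, chromosome 7, 134212344 to 134226160, plus strand), which reduces retinal and aliphatic aldehydes, had 0 reads in Parental 1, 4 in Resistant 1 and 1 in Resistant 2. With group means of 0.66 and 1.46 it was too low to test, and a count of 0 in Parental 1 allows up to 0.213 CPM, close to the 0.245 CPM of Resistant 1. No difference in AKR1B10 was detectable at this depth.

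**Figure D4:**
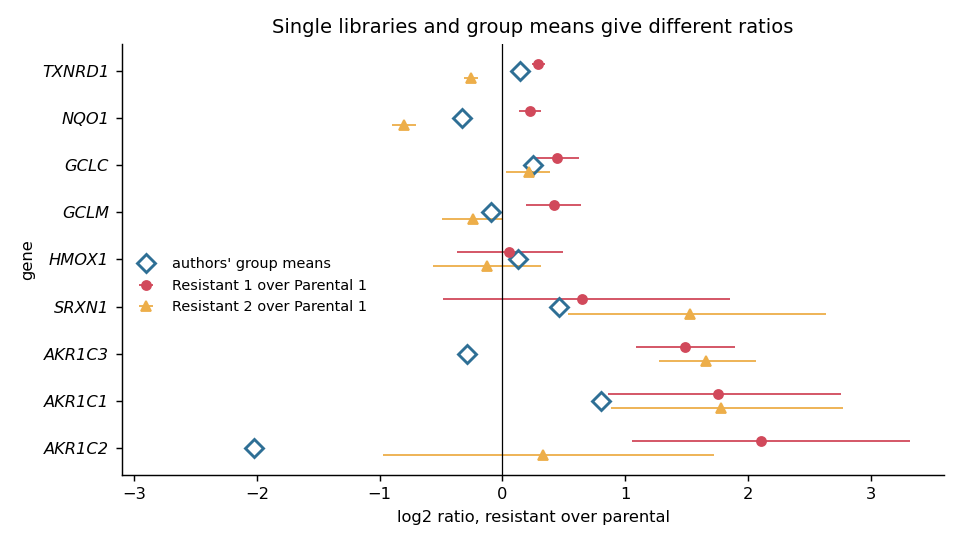
Log2 ratio of resistant over parental for the 9 tested genes, ordered as listed on the vertical axis. Diamonds are the deposited group means, circles and triangles the single libraries over Parental 1, with lines for the 95% interval of the counting error. TXNRD1, NQO1 and GCLM have the circle and the triangle on either side of 0, and for AKR1C2 the diamond lies at -2.02 while both single libraries lie above 0.

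The same fit was read for the genes around these members, from lists of NRF2 regulators and of redox enzymes. By edgeR's adjusted p, no gene of these lists passed: 0 of 12 tested genes of NRF2 control, 0 of 20 of glutathione supply and use, 0 of 13 of thioredoxin and peroxiredoxin, 0 of 8 of NADPH supply, 0 of 7 of heme and iron, 0 of 15 of quinone and drug handling, 0 of 3 of the other aldo-keto reductases and 0 of 4 of superoxide and peroxide removal. At an unadjusted p of 0.05 the counts were 1, 2, 3, 3, 0, 4, 0 and 1 in the same order, to be read against 9.73% of all genes tested. DESeq2 also called 0 in each list after adjustment, with 1, 2, 3, 3, 0, 4, 0 and 0 before it, against 4.21% of all genes. The median log2 fold changes of the lists ran from -0.42 (NADPH supply) to 0.33 (quinone and drug handling), against 0.03 over all genes tested.

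NFE2L2, which encodes NRF2 itself, had 1037, 1325 and 1152 reads in Parental 1, Resistant 1 and Resistant 2, and a log2 fold change of 0.00 (SE 0.35). KEAP1, its inhibitor, had 2326, 1756 and 2867 reads, or 165, 107 and 165 CPM, lower in Resistant 1 alone (log2 fold change -0.28, SE 0.39). SQSTM1, the autophagy receptor p62 that binds KEAP1 and is itself an NRF2 target, had 2582, 5443 and 8602 reads and group means of 2407 and 4638, both views higher in the resistant line, with a log2 fold change of 1.18 (SE 0.41, unadjusted p = 0.0168, adjusted p = 0.351). The log2 fold changes of the small MAF genes were 0.65 for MAFG, 0.69 for MAFK and 0.02 for MAFF, none of them past the test. BACH1, the repressor that competes with NRF2, had 0.39 and BACH2 0.11. Of the ligase, CUL3 had -0.05 and RBX1 -0.41, and of the related factors, NFE2L1 had -0.30 and NFE2L3 0.41. Over the 12 genes, both resistant libraries were above the parental one for 5 and below it for 3, near the shares over all tested genes (35.2% and 34.5%), and the median was 0.07.

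Among the tested genes of the other lists (20, 13, 8, 7, 15, 3 and 4, in the order above), 3 genes had group means at least 2-fold apart. The share of all genes past 2-fold was not taken, so the count is a description only. GPX3, the extracellular glutathione peroxidase, had means of 73.8 parental and 31.2 resistant, with 57, 32 and 47 reads in the libraries (log2 fold change -0.79, SE 0.58). ABCC4, an exporter of drugs and nucleotide analogues, had 394.4 and 183.6, with 347, 167 and 200 reads (-1.18, SE 0.38, adjusted p = 0.299). Both were lower in the resistant line in either view. CYP4F11, a fatty acid hydroxylase, had means of 58.2 and 23.8 but 11, 26 and 45 reads, so that, as for AKR1C2 and AKR1C3, the means and the single libraries pointed in opposite directions.

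**Figure D5:**
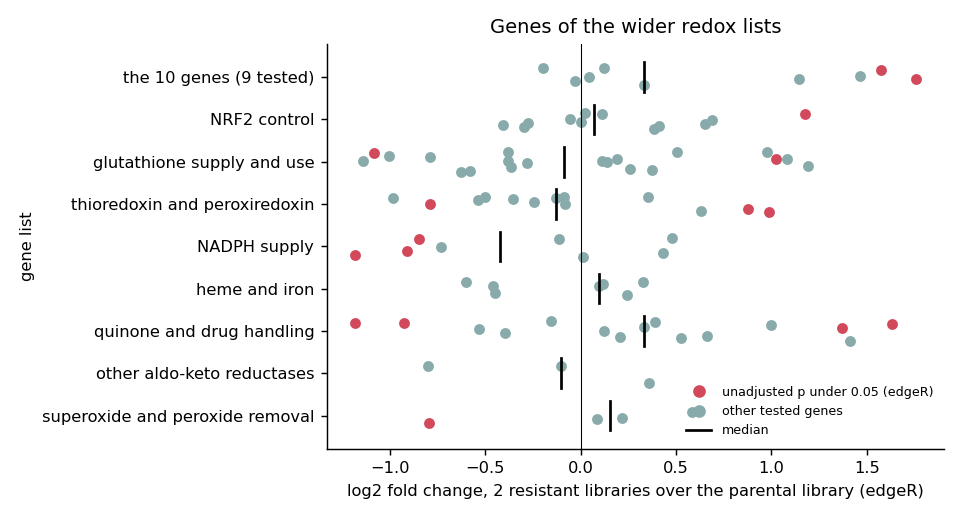
Log2 fold change (edgeR, 2 resistant libraries over Parental 1) of every tested gene of the 10-gene set and of 8 wider redox lists, 1 point per gene and a bar at the median; height within a list has no meaning. Red points have an unadjusted p under 0.05, and none passed after adjustment. AKR1C1 (1.76) and AKR1C3 (1.57) lie at the right end of the first line.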

How the data were processed

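Single-cell clones of 5637 cells were sequenced by the authors on an Illumina platform; the submitters' processing notes name CASAVA 1.8 and hg19, and the aligner, counter, annotation and strand setting are not given in the sources used here. The authors deposited raw read counts per gene and library, and FPKM values, which divide those counts by gene length and depth. They also deposited a group signal, a mean per group of counts after division by library size factors. The 6 columns whose names mark further parental and resistant clones of these groups, but which match no sample label used here, and the 3 columns of the authors' own comparison (fold change, p and adjusted p) were not used.

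Counts of Parental 1, Resistant 1 and Resistant 2 were fitted with edgeR 4.0.16 (R 4.3.3; TMM, filterByExpr, quasi-likelihood test, Benjamini-Hochberg over 15643 genes), with 1 residual degree of freedom per gene and a prior of 9.04. Group means were compared as log2 ratios with a pseudocount of 1 over genes with a mean of at least 10, where a ratio of 1.5-fold or more was counted. Single libraries were put on the scale of the group means by their median ratio to them. Ratios of libraries have exact 95% intervals, and intervals and the floor of 3 reads cover counting error only. Alternatives were DESeq2 1.42.0, library totals, no filter, FPKM, other thresholds and pseudocounts, and each resistant library left out. Coding sequences came from GENCODE 29 and promoter windows from RefSeq; protein sequences were not used here, so paralogs were compared by coding sequence. The edgeR fit, and no other step, was tested on simulated counts. The steps outside R used Python 3.11.15.

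The members and all lists were chosen with earlier results of these data known. Named besides the members were the NRF2 control list and any listed gene with an adjusted p under 0.05 or group means at least 2-fold apart at a mean of at least 10; genes outside this rule are said to be chosen after their values were seen. Of the listed genes, GSTA1, AKR1B15, AKR1C4, CD68, DCN and PECAM1 were not analysed here.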

Additional observations from a re-analysis of the deposited data

How the results depend on the processing

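The count of 0 genes past the adjusted p held with DESeq2, library totals, no filter and an adjusted p of 0.1. Both resistant libraries lay on one side of the parental one for 5 genes, all above it in the main setting. That count of 5, taken over either side, held with library totals, FPKM and DESeq2's size factors. The count of genes past 1.5-fold in the group means was 2; it was 4 when the 3 libraries replaced the means and 1 at a fold of 2. AKR1C2 turned from -2.02 in the group means to 1.40 in the 3 libraries, and the AKR1C sum from -0.43 to 1.61, an alternative chosen after seeing the data. HMOX1 turned from -0.03 to 0.03 with library totals and with FPKM. With either resistant library left out (a ratio of 1 library to 1, without a test), the log2 ratio ran from -0.80 to 0.23 for NQO1, where leaving out Resistant 2 gave the 0.23, from -0.13 to 0.06 for HMOX1 (0.06 without Resistant 2), from -0.24 to 0.42 for GCLM and from -0.25 to 0.29 for TXNRD1, both negative without Resistant 1. It ran from 0.21 to 0.45 for GCLC and 0.65 to 1.52 for SRXN1. For AKR1C1, AKR1C2 and AKR1C3 it ran from 1.76 to 1.78, 0.34 to 2.11 and 1.48 to 1.66. That these 5 kept their direction follows from both resistant libraries lying above Parental 1 and is no separate check. AKR1C3 went from -0.29 in the group means to 1.58 in the 3 libraries, GCLM from -0.09 to 0.14 and HMOX1 from 0.13 to -0.01. In all, 11 of 95 log2 ratios under alternatives lay on the other side of 0 from the value reported. The cause was not tested. No paired analysis was made because the paper describes the clones as independently derived, so a shared replicate number does not make a pair. With 1 parental library and 11 to 85 reads there for SRXN1 and HMOX1, and 9 for AKR1C2, the precision of the low genes is limited by depth as well as by the number of clones.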

Other observations

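The following genes were chosen after their values were seen. OSGIN1, an NRF2-induced growth inhibitor, had 46 reads in Parental 1 and 189 and 151 in Resistant 1 and 2, a log2 fold change of 1.63 (edgeR, SE 0.51, adjusted p = 0.275), with group means of 67.3 and 107.1. SLC7A11, the cystine carrier of system xc-, had 394, 838 and 1086 reads (1.02, SE 0.37, adjusted p = 0.382). TRIB3 (102, 295 and 336 reads), CHAC1 (53, 75 and 219) and SESN2 (298, 673 and 742), which are also induced in amino acid stress, had log2 fold changes of 1.37, 1.19 and 0.99. None of these passed after adjustment. The group means gave smaller log2 ratios: 0.66 for OSGIN1, 0.51 for SLC7A11, 0.53 for TRIB3, 0.49 for CHAC1 and 0.82 for SESN2. GSTP1, the main glutathione S-transferase of these cells, had 22683, 13075 and 12524 reads (-1.08, SE 0.34, adjusted p = 0.276). IDH1, a cytosolic source of NADPH, had 1465, 947 and 586 reads (-1.18, SE 0.39, adjusted p = 0.314). The group means of GSTP1 and IDH1 gave log2 ratios of -0.60 and -0.77, also smaller differences. AKR1D1, the steroid 5-beta-reductase, had 0, 8 and 9 reads and was too low to test.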
